A study of Mus musculus with 17 samples.

Results

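Counts of 10 genes of interleukin-1 (IL-1) signalling and of the feedback on its transcription factor NF-kB were described in cardiac fibroblasts (CFs) sorted from mouse hearts in the first week after myocardial infarction. The genes were the rows of the count table that carry the symbols *Il33*, *Il1r1*, *Il1rl1*, *Il1rap*, *Nfkbia*, *Nfkbiz*, *Tnfaip3*, *Nfkb1*, *Nfkb2* and *Relb*, 10 of the 31053 genes listed. The libraries were bulk MARS-seq, which reads the 3′ end of poly-A transcripts, with 3 libraries each at 1, 2, 4 and 6 days post infarction (dpi), 4 at 3 dpi and 1 at 5 dpi. Every library came from C57BL/6 mice aged 8 to 10 weeks that carry GFP under the *Col1a1* promoter and had the left anterior descending coronary artery tied off permanently. CFs were GFP+ and negative for CD31, an endothelial protein, and for CD45, a leukocyte protein, so cells in which the *Col1a1* promoter is silent were not sampled. Uninjured hearts were not analysed here, and each comparison is between days after infarction. The study's methods call the replicate libraries biological replicates, and p-values measure the spread between them.

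IL-1 family cytokines are alarm signals that injured or dying cells and leukocytes give to their neighbours. IL-1 binds the receptor encoded by *Il1r1* and IL-33 binds ST2, encoded by *Il1rl1*, and both complexes need the shared accessory chain encoded by *Il1rap*. The receptors recruit MyD88 and IRAK kinases, the IKK complex then marks the inhibitor IkBα for destruction, and NF-kB dimers enter the nucleus. NF-kB in turn raises transcription of its own brakes, among them *Nfkbia* (IkBα) and *Tnfaip3* (the ubiquitin-editing enzyme A20), and of *Nfkbiz* (IkBζ, a nuclear co-regulator). Its own precursors *Nfkb1* (p105, cut to p50) and *Nfkb2* (p100, cut to p52) are raised too. The latter is the partner of *Relb* in the non-canonical branch. In infarcted hearts CFs are known to answer IL-1 with chemokines that attract leukocytes.

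Upstream sequences of 7 of the 10 genes were found in the RefSeq promoter table (GRCm38.p6), at 13 start sites, and those of *Nfkbiz*, *Nfkb1* and *Relb* were not. The 250 bases before each start were searched for the NF-kB (kB) consensus on both strands, overlapping matches included. *Nfkbia*, *Tnfaip3*, *Nfkb2* and *Il1r1* held at least 1 match, 4 of the 7 genes, against 8.23% of the 27025 genes of that table and 10.8% of the 10711 tested genes found in it. The following sequences are shown because they set the feedback gene *Nfkbia*, with a match close to its start, beside *Il33* and the first start of *Il1r1*, which held none. They are given 5′ to 3′ on the strand of the gene, in lower case with the match in capitals: *Nfkbia* at chr12:55492648-55492897 (minus strand), *Il33* at chr19:29924863-29925112 and *Il1r1* at chr1:40224830-40225079 (both plus strand).
Nfkbia: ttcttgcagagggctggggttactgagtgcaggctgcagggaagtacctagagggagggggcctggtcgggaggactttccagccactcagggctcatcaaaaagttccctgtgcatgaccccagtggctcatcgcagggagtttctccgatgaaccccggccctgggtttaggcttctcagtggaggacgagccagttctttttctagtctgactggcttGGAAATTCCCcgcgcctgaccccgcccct
Il33: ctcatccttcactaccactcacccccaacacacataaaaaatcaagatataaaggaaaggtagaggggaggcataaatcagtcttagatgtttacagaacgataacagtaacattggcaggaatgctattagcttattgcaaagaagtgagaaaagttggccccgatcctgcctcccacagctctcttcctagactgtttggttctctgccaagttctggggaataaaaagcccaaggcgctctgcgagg
Il1r1: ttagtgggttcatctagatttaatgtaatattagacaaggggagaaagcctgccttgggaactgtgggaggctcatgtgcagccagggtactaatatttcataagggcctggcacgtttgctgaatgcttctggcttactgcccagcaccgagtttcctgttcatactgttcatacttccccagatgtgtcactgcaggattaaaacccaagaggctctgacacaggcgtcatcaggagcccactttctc
The match of *Nfkbia* lay 29 to 20 bases before the start. Windows of 30 bases around the matches of the other feedback genes were taken at chr10:19015516-19015545 and chr10:19015411-19015440 for *Tnfaip3* (minus strand) and at chr19:46304689-46304718 for *Nfkb2* (plus strand).
Tnfaip3: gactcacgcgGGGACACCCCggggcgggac
Tnfaip3: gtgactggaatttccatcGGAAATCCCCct
Nfkb2: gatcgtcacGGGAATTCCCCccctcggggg
The match of the second *Tnfaip3* window lay 12 to 3 bases before the start, and the *Nfkb2* window held 2 overlapping matches between 39 and 29 bases before it. *Nfkb2* held 5 matches over its 3 starts. A match describes letters in a window and says nothing of binding in these cells.

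Total counts per library ranged from 8021815 to 22029938, so that the floor of 3 counts stood at 0.136 to 0.374 CPM (counts scaled by library size), for counting error only. Collagen identity was clear, with 12665 to 208392 counts of *Col1a1* per library, while *Cd3e* was at 0 counts throughout and the CD45 gene *Ptprc* reached 37 counts at most. The leukocyte gene *Lyz2* was at 17 to 1428 counts and the CD31 gene *Pecam1* at 7 to 241 counts, so both were read in every library. The summed level of 8 endothelial markers ran from 19.2 to 84.2 CPM, both at 3 dpi. The summed level of 18 leukocyte markers was 11 to 26.1 CPM at 2 dpi and 49.0 to 279 CPM at 3 dpi, where replicates 3 and 4 held 279 and 261 CPM. The 8 cardiomyocyte markers summed to 8.87 to 13 CPM at 3 dpi, 48.6 to 80.4 CPM at 4 dpi and 93.4 to 225 CPM at 6 dpi, and the 4 erythroid globins to 1.81 to 26.0 CPM at 3 dpi and 308 to 2390 CPM at 4 dpi. *Xist* exceeded the sum of 4 Y-linked genes in every 4 and 6 dpi library and in 1 dpi replicate 1, and the reverse held in the other 10 libraries. The replicate 2 library of 3 dpi stood apart from its day, with a mean correlation of 0.919 to its 3 partners against 0.946 to 0.951 for the others, and so did 4 dpi replicate 3 (0.921) and 6 dpi replicate 3 (0.924). Results for the 10 genes are therefore given also without these libraries where that changes a call.

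Of the 10 genes, *Nfkb1* alone varied over the time course by edgeR's quasi-likelihood F-test (adjusted p = 0.00447), where 15.0% of the 14030 genes tested did, and 7 of the 10 had an unadjusted p under 0.05, as did 31.4% of all genes. *Nfkbia* (adjusted p = 0.0616), *Nfkbiz* (0.0623) and *Il33* (0.0778) did not pass. Without 3 dpi replicate 2 the genes that passed were *Nfkb1*, *Nfkbia*, *Nfkbiz*, *Il33*, *Il1r1* and *Nfkb2*, 6 of 10, where 24.8% of 13975 genes did. Without 6 dpi replicate 3 they were *Nfkb1*, *Il33*, *Il1rap*, *Nfkbiz* and *Tnfaip3*, 5 of 10, where 20.5% of 13962 genes did. Without 4 dpi replicate 3 *Nfkbia* passed beside *Nfkb1* (edgeR, adjusted p = 0.0349). DESeq2 called *Il33*, *Nfkbia*, *Nfkbiz*, *Nfkb1* and *Tnfaip3*, 5 of 10, where it called 26.8% of all genes. *Nfkb1* passed in each of the 24 alternative fits. In bulk RNA fewer cells of a kind and less RNA per cell cannot be told apart.

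**Figure D1:**
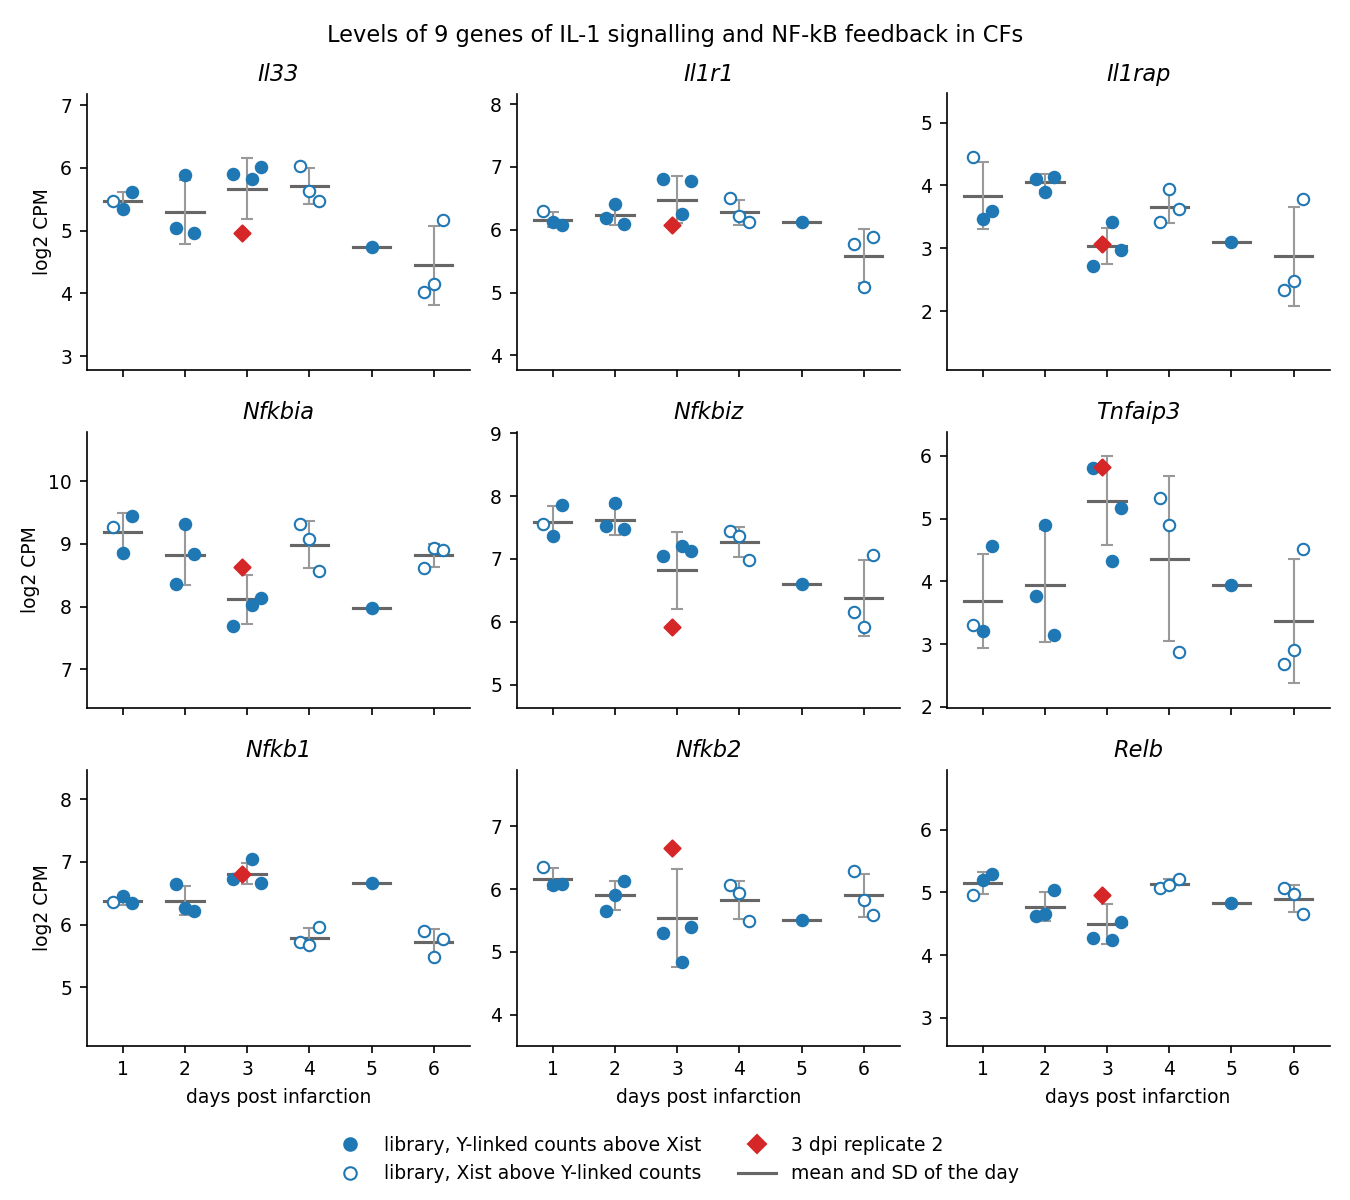
Level in log2 CPM of 9 genes (panels) in each of 17 libraries by day post infarction, with a line and bar for the mean and SD of the day (1 library at 5 dpi, without an SD). Filled points are libraries with Y-linked counts above *Xist*, open points the reverse, and the red diamond is 3 dpi replicate 2, with the lowest *Nfkbiz* level of its day at 5.92. *Nfkb1* is at or under 5.96 in every 4 and 6 dpi library and at or above 6.21 in all others.

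The ligand *Il33* encodes a nuclear alarmin that stromal cells hold and release on damage. It was at 44.3, 40.8 and 49.1 CPM in the 1 dpi libraries, 32.9, 58.7 and 31.1 CPM at 2 dpi and 59.5, 30.9, 56.4 and 64.5 CPM at 3 dpi. It was at 65.3, 49.3 and 44.3 CPM at 4 dpi, 26.7 CPM at 5 dpi and 16.1, 17.6 and 35.8 CPM at 6 dpi. Every 6 dpi library lay below every library of 1 and of 4 dpi, while the days from 1 to 4 dpi overlapped. The log2 fold change was -1.19 (SE 0.34) from 4 to 6 dpi, with an adjusted p of 0.0852 by edgeR, and -0.95 (SE 0.33) from 1 to 6 dpi, with an adjusted p of 0.0687, so neither passed. Both passed with DESeq2 (adjusted p = 0.0237 and 0.0476). They also passed by edgeR with every gene of at least 1 count tested (0.00541 and 0.0182), where both SEs were 0.30. These comparisons share the 6 dpi libraries. Without 6 dpi replicate 3, the highest of its day, *Il33* passed in both by edgeR. It fell by 1.65 from 4 to 6 dpi (adjusted p = 0.00832) and by 1.40 from 1 to 6 dpi (0.00863). Without 3 dpi replicate 2 the folds were those of all 17 libraries, and both passed (edgeR, 0.0284 and 0.0293). That library enters these comparisons through the shared estimate of the spread. Under every other alternative neither passed by edgeR. The adjusted p there ran from 0.0723 to 0.372 for 4 to 6 dpi and from 0.06 to 0.259 for 1 to 6 dpi. The highest values came without 6 dpi replicate 2 (0.372) and without 6 dpi replicate 1 (0.259).

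The IL-33 receptor gene *Il1rl1* was at or near the floor. It had 90 counts in all 17 libraries together, none in 7 of them and at most 15 in any, which was 0.618 CPM in 1 dpi replicate 2. At 3 dpi 1 of 4 libraries had any count, and it had 2. The highest level was 0.999 CPM, in 6 dpi replicate 3. It was tested because 5 libraries reached 10 counts, and no fold is given. The count does not separate the membrane and secreted forms of ST2, which are made from the same gene. Counts of the ligand were thus read on every day, and a difference between days in the receptor was not detectable at this depth.

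The receptor *Il1r1* was read in every library, with levels between 33.8 CPM in 6 dpi replicate 2 and 112 CPM in 3 dpi replicate 1. Its 3 libraries were at 78.6, 69.4 and 67.2 CPM at 1 dpi and at 54.8, 33.8 and 59.0 CPM at 6 dpi, without overlap. The log2 fold change from 1 to 6 dpi was -0.54 (SE 0.26) with an adjusted p of 0.174 by edgeR, and that from 4 to 6 dpi was -0.67 (SE 0.26) with an adjusted p of 0.165. Over the 17 libraries its log2 level followed that of *Il33* most closely among the 9 readable genes, with a Pearson correlation of 0.82. Libraries of a day and the sequencing depth are shared by the points, so this describes these libraries.

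The accessory chain gene *Il1rap* was at 17.1, 14.8 and 17.5 CPM at 2 dpi and at 6.38, 8.21, 10.6 and 7.77 CPM at 3 dpi. The days did not overlap, and the log2 fold change was -1.0 (SE 0.34) with an adjusted p of 0.109 by edgeR. Without 6 dpi replicate 3 the same fold had an adjusted p of 0.0488. At 4 dpi it was at 10.6, 15.2 and 12.2 CPM, and at 6 dpi at 4.91, 5.45 and 13.6 CPM. Replicate 3 of 6 dpi lay with the 4 dpi libraries and the other two below all of them, and without replicate 3 *Il1rap* fell by 1.29 from 4 to 6 dpi (edgeR, adjusted p = 0.0279) and by 1.5 from 1 to 6 dpi (0.00734). An antisense gene that overlaps its exons had 0 counts.

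The brake *Nfkbia*, whose protein IkBα holds NF-kB in the cytoplasm, was read at 2323 to 14226 counts per library. It was at 618, 465 and 695 CPM at 1 dpi, 327, 635 and 457 CPM at 2 dpi and 206, 396, 259 and 282 CPM at 3 dpi. It was at 638, 540 and 380 CPM at 4 dpi, 252 CPM at 5 dpi and 391, 492 and 481 CPM at 6 dpi. The 3 dpi mean was the lowest of the days with replicates, and replicate 2 was the highest of its 4 libraries. The log2 fold change was -0.73 (SE 0.28) from 2 to 3 dpi and 0.86 (SE 0.28) from 3 to 4 dpi, with adjusted p of 0.157 and 0.103 by edgeR. With DESeq2 the adjusted p was 0.0973 and 0.0414, so the rise passed there. These comparisons share the 3 dpi libraries. Without 3 dpi replicate 2, *Nfkbia* fell by 0.93 from 2 to 3 dpi (edgeR, adjusted p = 0.0451) and rose by 1.06 from 3 to 4 dpi (0.0239).

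*Nfkbiz* encodes IkBζ, which is needed for a set of late NF-kB target genes such as *Lcn2*. It was at 188, 165 and 232 CPM at 1 dpi and at 71.6, 59.9 and 134 CPM at 6 dpi, and the days did not overlap. It fell by 1.14 (SE 0.33) on the log2 scale from 1 to 6 dpi, 2.21-fold, with an adjusted p of 0.0291 by edgeR. The call was lost without 1 dpi replicate 1 (adjusted p = 0.0719 by edgeR), 1 dpi replicate 3 (0.0977), 6 dpi replicate 1 (0.13) or 6 dpi replicate 2 (0.145), with log2 fold changes between -0.93 and -1.17. In between it was at 183, 237 and 177 CPM at 2 dpi, 133, 60.3, 148 and 139 CPM at 3 dpi, 174, 165 and 127 CPM at 4 dpi and 96.8 CPM at 5 dpi. Every 3 dpi library lay below every 2 dpi library, with a log2 fold change of -0.73 (SE 0.30, edgeR, adjusted p = 0.195), and -0.51 without replicate 2. From 4 to 6 dpi it was -0.82 (SE 0.33, adjusted p = 0.184), and without 6 dpi replicate 3 *Nfkbiz* fell by 1.24 (adjusted p = 0.0272).

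*Tnfaip3* had the widest range of day means among the 9 readable genes, 1.91 on the log2 scale, and wide spread within days. It was at 55.7, 56.3, 19.8 and 35.8 CPM at 3 dpi, 13.5, 29.8 and 8.66 CPM at 2 dpi and 40.0, 29.5 and 7.16 CPM at 4 dpi. At 1 dpi it was at 9.75, 9.11 and 23.4 CPM and at 6 dpi at 6.33, 7.33 and 22.6 CPM. Each day overlapped its neighbours. The log2 fold change from 2 to 3 dpi was 1.27 (SE 0.57) with an adjusted p of 0.234 by edgeR, and its 95% interval ran from 0.09 to 2.45. The 3 feedback genes were thus ordered differently by day: *Nfkbia* and *Nfkbiz* had lower means at 3 dpi than at 2 dpi and *Tnfaip3* a higher one, none past the test.

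Among the NF-kB subunits, *Nfkb1* separated by day most plainly. It was at 82.2, 87.4 and 80.9 CPM at 1 dpi, 100, 77.3 and 74.1 CPM at 2 dpi and 106, 112, 132 and 101 CPM at 3 dpi. It was at 52.8, 51.3 and 62.1 CPM at 4 dpi, 102 CPM at 5 dpi and 59.4, 44.7 and 54.3 CPM at 6 dpi. All 6 libraries of 4 and 6 dpi lay below all 11 others. *Nfkb1* fell by 1.02 (SE 0.21) on the log2 scale from 3 to 4 dpi, 2.03-fold, with an adjusted p of 0.0106 by edgeR. The fold was between -0.93 and -1.12 with any library left out, and the call was lost without 4 dpi replicate 1 (adjusted p = 0.0611 by edgeR) or replicate 2 (0.0714) and in a fit of the 3 and 4 dpi libraries only (0.0666). From 4 to 6 dpi the log2 fold change was -0.07 (SE 0.21). From 1 to 6 dpi it was -0.66 (SE 0.21, edgeR, adjusted p = 0.0501). That fold passed in 5 of 24 alternatives, which were without 3 dpi replicate 2 (0.0248), without 4 dpi replicate 3 (0.0438), with 10 counts in every library (0.0496), with a robust spread (0.0488) and with DESeq2 (0.0199), and in the other 19 the adjusted p ran from 0.0505 to 0.197. The share of mitochondrial counts was 1.35 to 1.7% in the 2 dpi libraries, 0.321 to 0.782% at 3 dpi and 1.22 to 2.04% at 4 dpi. The headers of the count table name the 3 dpi libraries in another form than all others. The part of these in the differences from 2 to 3 dpi and from 3 to 4 dpi, for any gene, was not tested.

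The level of *Nfkb1* moved with the sex-linked genes. The gene with the most similar log2 level over the 17 libraries, among 8918 compared, was the Y-linked *Eif2s3y*, with a Pearson correlation of 0.89, and *Eif2s3y* had 0 counts in every 4 and 6 dpi library. Between 3 and 4 dpi, day and the *Xist* pattern cannot be told apart, since every 3 dpi library had Y-linked counts above *Xist* and every 4 dpi library the reverse. From 1 to 6 dpi they overlap in part, since every 6 dpi library had *Xist* above the Y-linked genes and at 1 dpi only replicate 1 did. Both limits hold for every gene. At 1 dpi, where both patterns were present, *Nfkb1* was at 82.2 CPM in the library with *Xist* above the Y-linked genes and at 87.4 and 80.9 CPM in the others. That library also held Y-linked counts. Every 1 dpi library had at least 60 counts of the Y-linked *Ddx3y*, against at most 3 at 4 dpi and 1 at 6 dpi. It is thus not of the same kind as those, and the values do not settle the question. *Il1rap* was at 21.7 CPM in 1 dpi replicate 1 and at 10.9 and 11.9 CPM in the others of that day. That is 1 library, the one with the fewest counts (8021815). *Il1rap* was at 10.6 to 15.2 CPM at 4 dpi and 4.91 to 13.6 CPM at 6 dpi, where *Xist* was above. At 2 dpi, where the Y-linked genes were above, it was at 14.8 to 17.5 CPM.

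*Nfkb2* and *Relb* varied less between days. *Nfkb2* was at 81.3, 66.7 and 67.8 CPM at 1 dpi and between 44.9 and 78.0 CPM at 2, 4, 5 and 6 dpi, while at 3 dpi it was at 39.3, 100, 28.5 and 41.7 CPM, with replicate 2 the highest and replicate 3 the lowest of all 17 libraries. Its largest log2 fold change between days was -0.26 (SE 0.35), with adjusted p by edgeR between 0.702 and 0.99 in the 5 comparisons. Without 3 dpi replicate 2 the change from 2 to 3 dpi was -0.72 (SE 0.23, edgeR, adjusted p = 0.0725). Its exons overlap the antisense gene *Psd*, with 671 counts, and the strand setting of the counting is not given in the sources used here, so their reads cannot be told apart. *Relb* was at 19.3, 30.7, 18.7 and 23.0 CPM at 3 dpi and 33.4, 34.3 and 37.2 CPM at 4 dpi, without overlap. The log2 fold change was 0.61 (SE 0.22, edgeR, adjusted p = 0.151), and without 3 dpi replicate 2 *Relb* rose by 0.78 (adjusted p = 0.0341).

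**Figure D2:**
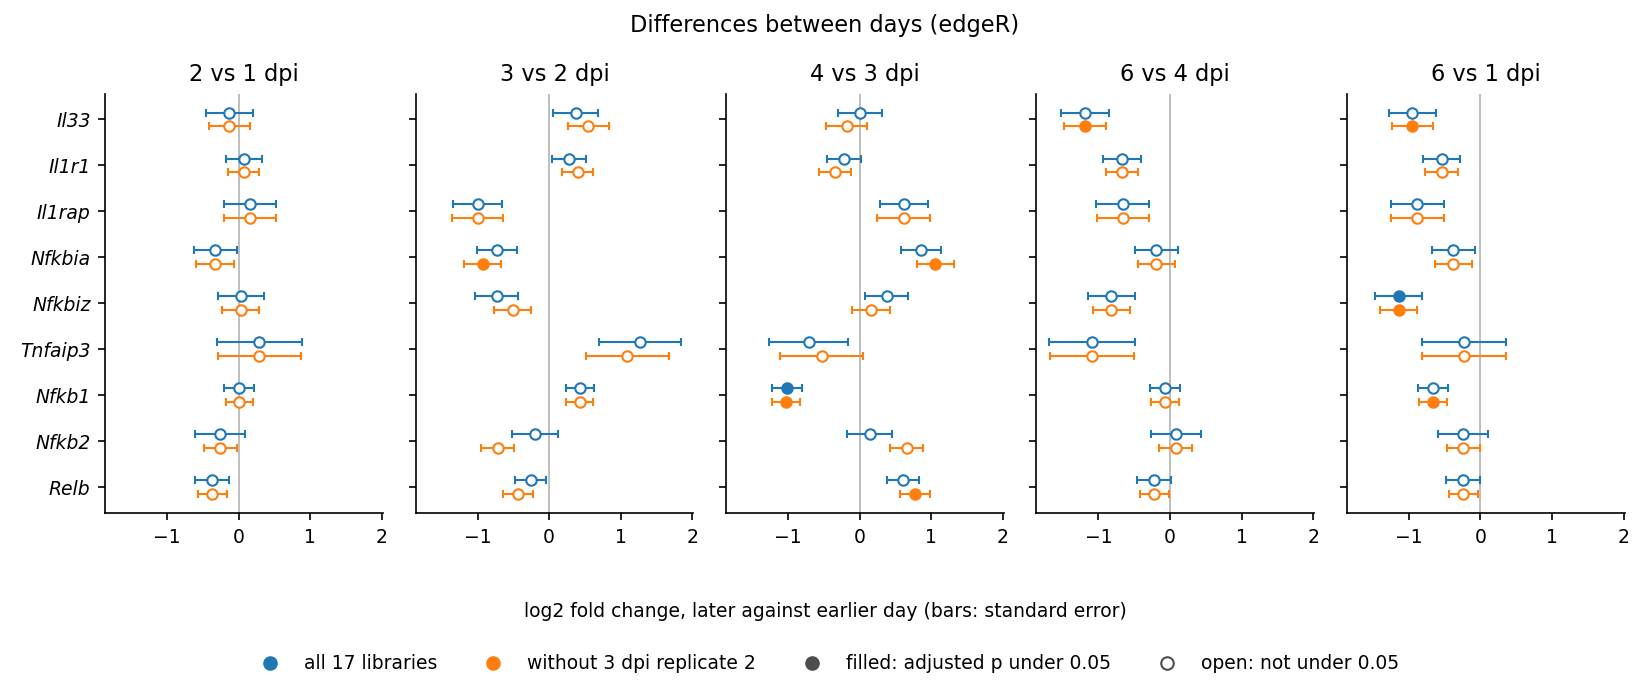
Log2 fold change with its standard error for 9 genes (rows) in 5 comparisons of days (panels), from all 17 libraries (blue) and without 3 dpi replicate 2 (orange). Filled points have an adjusted p under 0.05: with all libraries these are *Nfkb1* from 3 to 4 dpi (-1.02) and *Nfkbiz* from 1 to 6 dpi (-1.14).

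Counted by step with edgeR at an adjusted p under 0.05, none of the 10 genes passed in the first step, 1 to 2 dpi, where 0.178% of all genes did. None passed in the second, 2 to 3 dpi (2.94%), or in the fourth, 4 to 6 dpi (0.513%). *Nfkb1* passed in the third, 3 to 4 dpi (2.71%), and *Nfkbiz* over the whole span of 1 to 6 dpi (12.1%). At an unadjusted p under 0.05 there were 0, 5 and 3 genes in the first, the second and the fourth step, against 7.58%, 18.3% and 19.9% of all genes. DESeq2 called 0, 0 and 1 of the 10, against 0.741%, 7.43% and 5.75%. The libraries of both days stood fully apart for none of the 9 readable genes in the first step (15.1% of all genes tested) and for *Il1rap*, *Nfkbiz* and *Nfkb1* in the second (18.6%). They did so for *Il1rap*, *Nfkb1* and *Relb* in the third (16.7%), for *Il33* and *Il1r1* in the fourth (21.6%), and for *Il33*, *Il1r1*, *Nfkbiz* and *Nfkb1* over the whole span (32.5%). Read against those shares, no step is given as a result about the 9 genes as a group. From 1 to 6 dpi all 9 had a fitted fold below 0, between -0.23 and -1.14 with a median of -0.54, where the median of all genes was 0.03. Over the same span the 8 cardiomyocyte markers summed to 19 to 40.3 CPM at 1 dpi and 93.4 to 225 CPM at 6 dpi, and the 6 mural cell markers to 41 to 76.8 and 142 to 173 CPM. The 10 fibroblast markers summed to 16300 to 27600 CPM at 1 dpi and 35600 to 41600 CPM at 6 dpi. Leukocyte sums overlapped (14.7 to 43.4 and 29.9 to 42.4 CPM), as did globin sums (24.9 to 113 and 60.2 to 497 CPM). The part of the sums that separated in these differences was not tested.

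Transcripts of the other IL-1 family ligands were scarce in the sorted cells. *Il1a* had no count in any library and *Il1rn*, the receptor antagonist, had 15 in all. *Il1b*, a leukocyte product, was at 5.28 and 21.5 CPM in 3 dpi replicates 3 and 4, at 8.74 CPM in 1 dpi replicate 1, at 5.62 CPM at 5 dpi and at or under 3.06 CPM in the other 13 libraries. The first 2 of these libraries also held the highest sums of leukocyte markers. Of the 12 genes of ligands and decoys 8 were in the table and 4 were tested (*Il1b*, *Il18*, *Il18bp* and *Il1r2*), and 0 passed over the time course by edgeR, where 1 had an unadjusted p under 0.05 and DESeq2 called 1. The lowest adjusted p was that of *Il18* (0.123). The decoy receptor *Il1r2* was between 0.534 and 8.05 CPM. Among the other receptors, *Il1rl2*, which binds IL-36, was read in every library at 11.3 to 37.9 CPM, with means of 16.5 CPM at 2 dpi, 26.9 CPM at 3 dpi, 27.9 CPM at 4 dpi and 17.1 CPM at 6 dpi, and did not pass (time course adjusted p = 0.0767).

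Downstream of the receptors, 2 of 16 adaptor and kinase genes varied over the time course (edgeR, adjusted p under 0.05), *Irak3* and *Irak2*, 12.5% against 15.0% of all genes. *Irak3* encodes IRAK-M, a pseudokinase known to restrain signalling by this receptor family. It was at 26.8, 38.3 and 20 CPM at 2 dpi and at 12.6, 11, 12.4 and 10.5 CPM at 3 dpi, without overlap. It fell by 1.28 (SE 0.25, edgeR, adjusted p = 0.00931) from 2 to 3 dpi and by 1.40 (SE 0.28, adjusted p = 0.00297) from 1 to 6 dpi. *Irak2*, a further IRAK gene, was named after its value was seen because its mean of 46.7 counts was low. It passed over the time course (edgeR, adjusted p = 0.0111), and no step between neighbouring days passed. Its lowest day mean was 1.23 CPM at 1 dpi. Its highest level by day was in the single 5 dpi library, 10.6 CPM, against a mean of 5.77 CPM at 3 dpi, the next highest. Of 11 genes of the IKK complex and the non-canonical kinase, 9 other NF-kB and IkB genes and 11 tested feedback inhibitors, 0 varied over the time course by edgeR, where 0, 3 and 2 had an unadjusted p under 0.05 and DESeq2, which called 26.8% of all genes, called 0, 3 and 1. From 1 to 6 dpi 2 of the adaptors (*Irak3* and *Map3k8*) and 1 NF-kB family gene (*Bcl3*) fell, 12.5% of the adaptors and 11.1% of the 9 family genes, where 12.1% of all genes changed and 5.21% fell. *Map3k8* fell by 0.98 and *Bcl3* fell by 1.05 (edgeR, adjusted p = 0.0494 and 0.0184), both named after their values were seen. Of the 10 tested genes of the TNF group, 2 varied over the time course by edgeR (20% against 15.0% of all genes). From 1 to 6 dpi 1 of the 10 fell (10%, where 12.1% of all genes changed and 5.21% fell). It was *Tnfrsf12a*, the receptor of TWEAK, which fell by 1.04 (SE 0.26, edgeR, adjusted p = 0.0141). *Tnfrsf12a* had an adjusted p of 0.0186 over the time course, and 0.0652 and 0.0591 by edgeR without 1 dpi replicate 2 and without 1 dpi replicate 3.

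Among the lists, the genes known to be raised by NF-kB had the highest share that varied over the time course. Of its 29 genes 26 were tested, and 13 varied over the time course by edgeR (50% of the tested genes against 15.0% of all genes, 9 to 15 with any library left out). From 1 to 6 dpi 11 fell and 0 rose (42.3%, where 12.1% of all genes changed and 5.21% fell), the median log2 fold change of the 26 was -1.42 where that of all genes was 0.03, and 8 to 13 passed with any library left out. The list holds genes that other factors drive too, and it was chosen with earlier results of these data known. Every 6 dpi library had *Xist* above the Y-linked genes and at 1 dpi only replicate 1 did. The part of that pattern in the differences from 1 to 6 dpi was not tested. Between neighbouring days 0 passed from 1 to 2 dpi by edgeR (9 with an unadjusted p under 0.05 and 0 by DESeq2), 2 rose from 2 to 3 dpi (*Cxcl5* and *Lif*), 2 fell from 3 to 4 dpi (*Cxcl5* and *Csf1*) and 3 fell from 4 to 6 dpi (*Cxcl5*, *Lif* and *Ptgs2*). The 11 that fell, named after their values were seen, were the chemokines *Cxcl5*, *Ccl2*, *Ccl7*, *Cxcl1* and *Cxcl2*, the cytokines *Lif* and *Csf1*, the prostaglandin enzyme *Ptgs2*, the protease *Mmp3*, the iron-binding *Lcn2* and the mitochondrial dismutase *Sod2*.

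*Cxcl5*, a chemokine for neutrophils, had the widest range of day means on the list, 5.65 on the log2 scale. It was at 441, 382 and 164 CPM at 1 dpi, 155, 91.6 and 78.4 CPM at 2 dpi, 242, 399, 303 and 517 CPM at 3 dpi, 106, 91.8 and 43.7 CPM at 4 dpi, 67.9 CPM at 5 dpi and 6.20, 3.32 and 15.3 CPM at 6 dpi. It rose by 1.75 (SE 0.46, edgeR, adjusted p = 0.043) from 2 to 3 dpi, fell by 2.18 (SE 0.47, 0.0151) from 3 to 4 dpi and fell by 3.28 (SE 0.51, 0.00802) from 4 to 6 dpi. The 3 dpi libraries with the most leukocyte markers, replicates 3 and 4, were at 303 and 517 CPM and the others at 242 and 399 CPM. *Mmp3*, a protease of the matrix, was at 138, 8.45, 109 and 105 CPM at 3 dpi, where replicate 2 lay far below its day. It was at 179, 167 and 141 CPM at 1 dpi and 8.52, 12.1 and 23.8 CPM at 6 dpi, and fell by 3.45 (SE 0.64, adjusted p = 0.00192). *Saa3*, an acute-phase protein, varied over the time course (adjusted p = 0.032) with its highest level in the single 5 dpi library, 951 CPM, and did not pass without that library (0.141) or in 7 other alternatives, 5 of them with a library of 1, 2 or 6 dpi left out (0.0508 to 0.091). *Ccl2*, a chemokine for monocytes, was at 1150, 838 and 855 CPM at 1 dpi and 87.5, 62.0 and 203 CPM at 6 dpi, and fell by 3.01 (SE 0.48, adjusted p = 0.000433).

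Of the 3 feedback genes, *Nfkbiz* passed over the same span. From 1 to 6 dpi the log2 fold change was -0.38 (SE 0.30) for *Nfkbia*, -1.14 (SE 0.33) for *Nfkbiz* and -0.23 (SE 0.59) for *Tnfaip3*, and 95% intervals ran from -1.01 to 0.24 for *Nfkbia* and from -1.47 to 1.01 for *Tnfaip3*. Tissue digestion raises immediate early and heat shock genes, and of 27 genes of that response 5 varied over the time course (18.5% against 15.0% of all genes, 2 to 9 with any library left out). From 1 to 6 dpi 4 of the 27 fell (14.8%, where 12.1% of all genes changed and 5.21% fell). They were the heat shock genes *Hspa1a*, *Hspa1b*, *Hsph1* and, named after its value was seen, *Hspa8*. *Hsph1* fell by 2.19 (SE 0.39, edgeR, adjusted p = 0.00118). The part of the genes of that response in the differences of the NF-kB genes was not tested.

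Genes whose log2 level was most like that of each member over the 17 libraries, by Pearson correlation among 8918 genes with a mean of at least 100 counts, were as follows, as a description of libraries that share day and depth. They were *Tab2*, *Ifrd1* and *Abcg2* for *Il33* (0.91, 0.88 and 0.88), *Gnai3*, *C1galt1* and *Rabgap1l* for *Il1rap* (0.92, 0.90 and 0.90) and *Ccz1*, *Hnrnpa2b1* and *Cul4a* for *Il1r1* (0.90, 0.89 and 0.88). They were *Eif2s3y* and *Sbds* for *Nfkb1* (0.89 and 0.89), *Fxyd5*, *Ehd2* and *Eif4ebp1* for *Nfkb2* (0.90, 0.89 and 0.88) and *Tbcb*, *Mrrf* and *Insyn1* for *Relb* (0.86, 0.86 and 0.85). They were *Psme2b*, *Fam126a* and *Strn3* for *Nfkbia* (0.92, 0.92 and 0.90), *Ppp4r2*, *Slc38a2* and *Zfp36l2* for *Nfkbiz* (0.96, 0.93 and 0.92) and *Fbxw2*, *Acyp2* and *Lgmn* for *Tnfaip3* (0.88, 0.87 and 0.87). None of the named genes was another member. Within the members the closest pairs after *Il33* and *Il1r1* were *Il1rap* with *Nfkbiz* (0.75), *Il33* with *Nfkbiz* (0.71) and *Nfkb2* with *Relb* (0.69), and *Nfkbia* with *Nfkb1* was the most opposed (-0.60).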

How the data were processed

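Bulk MARS-seq libraries of sorted CFs, 17 in all, were analysed from the deposited counts. The authors demultiplexed reads with bcl2fastq (1.2.4), used STAR for alignment to the mouse genome (mm10) and featureCounts for the read count of each gene in an Ensembl GRCm38 annotation. The deposited values are raw read counts per gene, not normalized, with 1 column per library. No collapsing of molecular identifiers is stated. The strand setting is not given in the sources used here.

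Groups were the days in the labels. The single 5 dpi library is replicate 3 in its title and 1 in its description. The tested genes, 14030, reached 10 counts in 3 or more libraries and held 99.93% or more of each library's counts. All 17 libraries entered 1 fit of edgeR (4.0.16, R 4.3.3), a quasi-likelihood F-test on TMM-scaled counts in which each of the 6 days had its own mean. P-values were two-sided, Benjamini-Hochberg adjusted over the tested genes, and called under 0.05. Levels are CPM of TMM-normalized library sizes, or log2 CPM with a prior count of 2, and errors are SDs between libraries or standard errors of the model. The spread between libraries exceeded counting error in all 18 replicate pairs. The fits were tested on simulated data.

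The 10 genes and all lists were chosen with earlier results of these data known. Named from each list were up to 3 genes that passed over the time course, had a mean of at least 100 counts and the widest range of day means, and all genes of lists with 5 or fewer detected genes. Exceptions are marked in the text. Alternatives were DESeq2's size factors, upper-quartile normalization, DESeq2 (1.42.0), every gene with at least 1 count, a minimum of 10 counts in all libraries, robust estimation of the spread, blocking by replicate number, only the libraries compared, and each library left out. Levels were also computed from raw library sizes and as log2 of DESeq2-normalized counts plus 1.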

Additional observations from a re-analysis of the deposited data

Results flagged for a closer look

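The level of *Nfkbiz* in 3 dpi replicate 2 was 5.92 log2 CPM, against 7.05, 7.12 and 7.21 in the other libraries of that day, a gap of 0.88 of the day's range, which is past Dixon's 95% critical value for 4 libraries. None of the other 8 genes examined at 3 dpi went past it, and chance flags about 1 in 20 groups. *Il33* in the same library came next, at 4.96 against 5.82 to 6.01, with a ratio of 0.816. The other days held too few libraries to examine.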

How the results depend on the processing

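The call of *Nfkb1* over the time course held in all 24 alternatives. *Nfkb1* from 3 to 4 dpi and *Nfkbiz* between 1 and 6 dpi kept their direction in each and lost their call where the text says so. Depth limited *Il1rl1*, with 90 counts in all libraries. The cause of the changes listed here was not tested. Comparisons are named in the order time course, first step (1 to 2 dpi), the second (2 to 3), the third (3 to 4), the fourth (4 to 6) and whole span (1 to 6). Of the 10 genes 1, 0, 0, 1, 0 and 1 passed. DESeq2 called 5, 0, 0, 2, 1 and 3, and with every gene of 1 count or more tested 5, 0, 1, 1, 2 and 2 passed. A minimum of 10 counts in all libraries and a robust spread each gave 2 over the whole span, and fitting just the libraries compared gave 0 in the third step. Leaving out single libraries gave 1 to 6, 0, 0 to 1, 0 to 3, 0 to 3 and 0 to 3, with the highest without 3 dpi replicate 2 or 6 dpi replicate 3. The third step had 0 without 4 dpi replicate 1 or 2, and the whole span had 0 without 1 dpi replicate 1 or 3 or 6 dpi replicate 1 or 2.

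Over all genes 2099, 25, 412, 380, 72 and 1700 passed. DESeq2 called 3757, 104, 1042, 879 and 807 in the first 5 of these comparisons, and with every gene of 1 count or more tested 3729, 153, 980, 866 and 882 passed. A minimum of 10 counts in all libraries gave 10 in the first step and 140 in the fourth. Fitting just the libraries compared gave 63, 252, 125 and 14 in the 4 steps. Leaving out single libraries gave 1307 to 3466, 13 to 32, 46 to 734, 126 to 722, 3 to 1402 and 763 to 2577. The highest came without 3 dpi replicate 2 or 6 dpi replicate 3, and the lowest without 6 dpi replicate 1 (1307), 1 dpi replicate 1 or 2 dpi replicate 3 (13), 2 dpi replicate 2 (46), 4 dpi replicate 2 (126 and 3) or 6 dpi replicate 2 (763). The replicate number as a block gave 174, 243 and 28 in the second, the third and the fourth step, and as many of the 10 genes as without it in each comparison. Libraries with the same number did not deviate together on average (mean correlation 0.011 over 30 pairs, from -0.108 to 0.2, and -0.005 over 72 other pairs). Pairing by number was thus not detected over all tested genes, and these means cannot exclude it for some libraries.

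Among the folds that reversed none was a call. *Il33* in the third step was 0.01, and -0.01 with DESeq2's size factors and with DESeq2, -0.02 with every gene of 1 count or more, and -0.18 to 0.12 with a library left out. With a library left out, folds in the first step ran from -0.48 to 0.03 for *Il33*, -0.03 to 0.14 for *Il1r1*, -0.02 to 0.52 for *Il1rap*, -0.12 to 0.17 for *Nfkbiz*, -0.14 to 0.09 for *Nfkb1* and -0.35 to 0.88 for *Tnfaip3*. *Nfkb2* ran from -0.06 to 0.66 in the third step and from -0.14 to 0.22 in the fourth, *Nfkb1* from -0.16 to 0.04 in the fourth and *Tnfaip3* from -1.05 to 0.36 over the whole span. All day means stayed within 1 SD under both other scales.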
